A study of Rattus norvegicus with 18 samples.

Results

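The mitochondrial carrier family and the uncoupling proteins were followed in rat hepatocytes treated with the PPAR agonist EMD. Members were all genes whose platform symbol began with Slc25a, other than Slc25a20, together with Ucp1, Ucp2 and Ucp3. A probe set (the group of short probes on the array that reads 1 transcript) counted only when the annotation gave it exactly 1 gene symbol, and where a gene had several, the one with the highest average across the 18 arrays stood for it. This gave 42 members of the 14217 genes on the array with such a symbol, from 61 probe sets, and 13 members had more than 1 probe set. Of the 42, 9 had a mean under the median of the arrays, where RMA values (the normalised log2 estimates used here) lie close to the background and changes are compressed.

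Carriers of the SLC25 family sit in the inner mitochondrial membrane, which is otherwise closed to charged metabolites, and exchange nucleotides, phosphate, acids, amino acids and cofactors between the matrix and the cytosol. In liver they link the respiratory chain to the ATP supply of the cell, and serve the urea cycle, gluconeogenesis and lipid synthesis. Uncoupling proteins belong to the same family. UCP1 lets protons flow back into the matrix and so makes heat in brown fat, while UCP2 and UCP3 are related proteins known from many tissues and from skeletal muscle.

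Primary hepatocytes, the main cells of the liver, were taken from livers of Wistar rats, and treatment began once they had attached to the dish. EMD activates both PPARα and PPARγ, nuclear receptors for fatty acids and related ligands. The 6 groups were 30 µM EMD, 100 µM EMD and 0.1% DMSO (the vehicle control) for 24 h, and the same 3 treatments for 72 h, with 3 Affymetrix rat genome arrays each. All groups shared a medium with insulin, hydrocortisone and gentamicin. The sex and age of the animals were not given in the labels.

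The 18 arrays correlated with each other at 0.961 or above, and their medians lay between 5.04 and 5.11. The labelled cell type fitted its markers, since 13 of 13 measured hepatocyte markers were above the array median in every group. Of the markers of other liver cells, 4 to 7 of 16 macrophage and 1 to 3 of 10 stellate cell and fibroblast markers were above it, depending on the group. For cholangiocytes it was 1 to 2 of 5 markers, and for endothelial cells 0 of 7. The median splits all probe sets of an array evenly, so these counts do not show whether such cells were present. RNA quality was read from beta-actin controls, as the signal at the 3′ end minus that at the 5′ end, and averaged 1.33 ± 0.05 with 30 µM EMD, 1.29 ± 0.09 with 100 µM EMD and 1.31 ± 0.04 with DMSO at 24 h (log2, SD, n = 3). At 72 h it averaged 0.85 ± 0.04 with 30 µM EMD and 0.85 ± 0.01 with 100 µM EMD, against 0.70 ± 0.05 with DMSO, so this measure moved with treatment at 72 h, and with culture time. For GAPDH the same difference was 0.27 ± 0.03 with 30 µM EMD and 0.22 ± 0.04 with 100 µM EMD, against 0.29 ± 0.01 with DMSO, at 24 h, and 0.17 ± 0.04 and 0.14 ± 0.02 with EMD, against 0.17 ± 0.02 with DMSO, at 72 h. For hexokinase it was 1.63 ± 0.07 and 1.51 ± 0.10 with EMD, against 1.40 ± 0.12 with DMSO, at 24 h, and 1.50 ± 0.14 and 1.67 ± 0.11 with EMD, against 1.57 ± 0.07 with DMSO, at 72 h. The controls thus differed in where they moved: GAPDH was lower with 100 µM than with DMSO at 24 h and lower at 72 h in every group, and hexokinase was higher with 30 µM than with DMSO at 24 h, in each case without overlap of the arrays. The part of RNA quality in the results was not tested. Changes below are differences of group means on the log2 scale ± SE of the limma fit, and a member rose or fell where the p-value of limma's moderated test, adjusted by Benjamini-Hochberg over all 31042 probe sets tested, was under 0.05. Levels of different probe sets were not compared. The study's methods state that hepatocytes of every animal went through all treatments, so a fit with the replicate number as a block was also made, and its adjusted p is given where it changed a call.

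Of the 10 members given per array below, 8 had a promoter in the RefSeq table, and 4 of these are shown: Ucp2 and Slc25a42, whose rises were the largest, and Ucp3 and Slc25a34, the only ones of the 8 whose window held the element marked here. Ucp2 and Ucp3 are direct neighbours on chromosome 1, with 0 coding genes between them, and their promoters lie 23.5 kb apart on the same strand. Each sequence runs from 250 bases before to 50 bases after the gene's start (RefSeq, GRCr8), and capitals mark the hexamer AGGTCA or its reverse complement, the core element that nuclear receptors such as PPAR and RXR bind. The windows are chr1:164251123-164251422 and chr1:164227660-164227959 on the plus strand, chr16:19247724-19248023 on the plus strand and chr5:159219843-159220142 on the minus strand.
Ucp2: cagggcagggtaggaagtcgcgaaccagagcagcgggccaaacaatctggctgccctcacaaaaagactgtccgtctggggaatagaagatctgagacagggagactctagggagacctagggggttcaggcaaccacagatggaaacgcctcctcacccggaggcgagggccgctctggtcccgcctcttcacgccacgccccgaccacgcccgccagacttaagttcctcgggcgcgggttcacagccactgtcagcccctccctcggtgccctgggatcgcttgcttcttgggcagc
Ucp3: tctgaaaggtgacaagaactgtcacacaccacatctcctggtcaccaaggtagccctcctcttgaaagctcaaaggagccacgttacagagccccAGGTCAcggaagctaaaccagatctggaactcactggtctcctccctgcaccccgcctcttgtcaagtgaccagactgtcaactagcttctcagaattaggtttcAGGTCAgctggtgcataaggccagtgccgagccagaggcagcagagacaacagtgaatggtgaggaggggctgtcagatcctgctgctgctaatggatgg
Slc25a42: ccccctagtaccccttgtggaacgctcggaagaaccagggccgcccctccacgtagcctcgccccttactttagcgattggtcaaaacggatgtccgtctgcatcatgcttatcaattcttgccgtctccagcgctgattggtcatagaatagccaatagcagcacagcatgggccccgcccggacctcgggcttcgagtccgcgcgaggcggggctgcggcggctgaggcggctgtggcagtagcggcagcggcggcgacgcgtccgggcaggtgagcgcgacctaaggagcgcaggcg
Slc25a34: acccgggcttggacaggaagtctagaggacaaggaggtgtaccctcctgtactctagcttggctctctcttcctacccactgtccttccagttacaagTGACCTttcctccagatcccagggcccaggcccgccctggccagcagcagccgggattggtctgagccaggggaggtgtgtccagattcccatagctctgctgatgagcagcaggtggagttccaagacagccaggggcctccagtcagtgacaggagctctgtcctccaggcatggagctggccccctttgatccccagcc
The Ucp3 window held 2 copies of AGGTCA, which begin 155 and 50 bases before the start. Slc25a34 held 1 copy on the opposite strand, which is printed as TGACCT and begins 152 bases before the start, and the windows of Ucp2, Slc25a42, Slc25a4, Slc25a13, Slc25a24 and Slc25a29 held none. Of these, Slc25a13 and Slc25a24 passed at 72 h alone, as did Ucp3 and Slc25a34. RefSeq promoters were found for 36 of the 42 members, and 6 of these (16.7%) held the hexamer, against 16.2% of all 33469 promoters of the same length. The direct repeat of AGGTCA with 1 base of any kind in between was found on either strand in 0 of the 36 and in 0.0538% of all promoters. These matches describe the letters alone.

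In each of the 4 comparisons with DMSO more carriers rose than fell, and 5 members passed in all 4. Ucp2, Slc25a42, Slc25a4 and Slc25a30 rose and Slc25a29 fell at both doses and both times. At 24 h, 30 µM EMD raised 5 and lowered 3 of the 42 members, beside 3.35% of all probe sets that rose and 2.01% that fell. With 100 µM at 24 h 5 rose and 2 fell (all probe sets 3.06% and 2.95%). At 72 h, 10 rose and 4 fell with 30 µM (all probe sets 7.88% and 9.22%), and 10 rose and 4 fell with 100 µM (all probe sets 7.42% and 9.68%). In percent of the 42 members, 11.9%, 11.9%, 23.8% and 23.8% rose in this order, and 7.14%, 4.76%, 9.52% and 9.52% fell. The members and the gene lists below hold 1 probe set per gene. Over all 14217 genes read in this way, 4.37%, 3.91%, 9.44% and 9.24% rose, and 2.86%, 4.33%, 13% and 13% fell. Against these shares the members fell less often at 72 h. The median change of all members was small, at -0.03 and 0.00 with 30 and 100 µM at 24 h and 0.06 and 0.15 at 72 h, where the medians over all probe sets were -0.03, -0.01, 0.01 and 0.02. Altogether 20 members passed in at least 1 of the 4 comparisons, 13 of them upward and 7 downward with no change of direction. Of the 20, 12 passed at 72 h alone and 2 at 24 h alone. No share of all probe sets was taken for these counts or for the 5 members that passed in all 4. More of all probe sets also passed at 72 h than at 24 h, as given above. The 2 doses at a time were set against the same 3 DMSO arrays, so their changes share the chance values of those arrays.

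**Figure D1:**
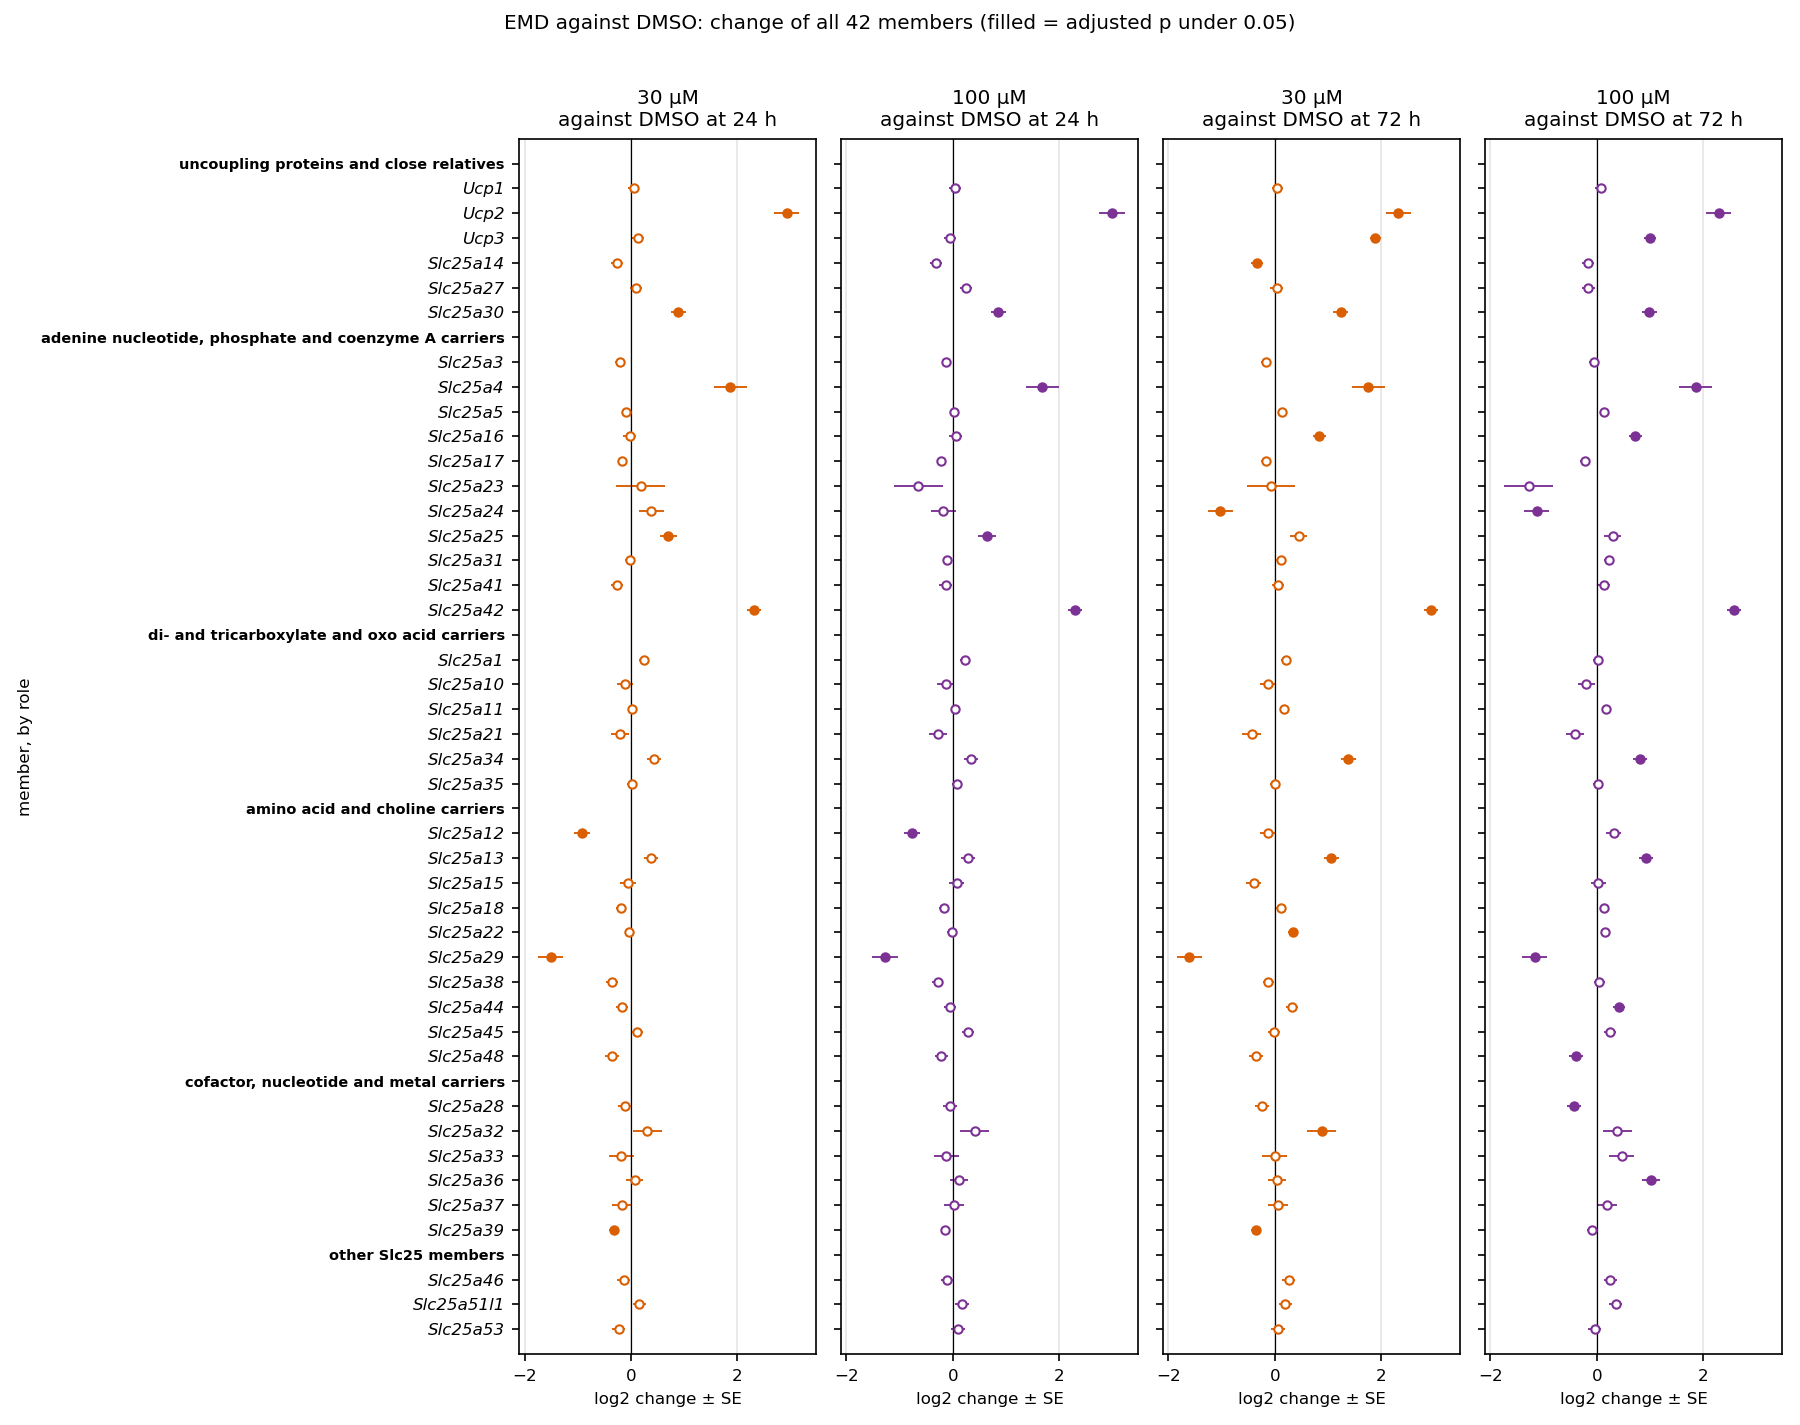
Log2 change ± SE (x axis) of each of the 42 members, grouped by role (y axis), for 30 and 100 µM EMD against DMSO at 24 h and at 72 h, with 3 arrays per group. Filled points passed an adjusted p of 0.05, and the points far to the right in all 4 panels are Ucp2 and Slc25a42, with changes between 2.28 and 2.99.

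Among the 6 uncoupling proteins and their close relatives, Ucp2, Ucp3 and Slc25a30 rose with EMD, and Ucp1 was never called. Ucp2, which also carries small acids out of the matrix, read 8.52, 8.71 and 8.79 with 30 µM EMD and 8.55, 8.78 and 8.87 with 100 µM EMD, against 6.12, 5.31 and 5.81 with DMSO at 24 h. At 72 h it read 8.99, 8.79 and 8.79 with 30 µM EMD and 9.11, 8.51 and 8.84 with 100 µM EMD, against 7.05, 6.66 and 5.91 with DMSO. All 12 EMD arrays lay above all 6 DMSO arrays. Ucp2 rose by 2.93 ± 0.24 with 30 µM (adjusted p = 3.1e-07) and 2.99 ± 0.24 with 100 µM (adjusted p = 2.4e-07) at 24 h, 7.6-fold and 7.92-fold, and by 2.32 ± 0.24 and 2.28 ± 0.24 at 72 h (adjusted p = 2.7e-06 and 3.9e-06), 4.99-fold and 4.87-fold.

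Ucp2 is also expressed by macrophages, which in liver are the Kupffer cells, so their markers are given beside it. Over 16 macrophage markers the mean of an array ran from 5.20 to 5.51 with 30 µM EMD and 5.16 to 5.47 with 100 µM EMD at 24 h, against 5.33 to 5.91 with DMSO. At 72 h it ran from 4.78 to 4.99 and 4.79 to 4.97 with EMD, against 5.09 to 5.32 with DMSO. In the 4 comparisons limma called 0 of 16 higher and 1, 1, 2 and 3 lower, with 1, 3, 5 and 5 at an unadjusted p under 0.05 in either direction. These falls were 6.25%, 6.25%, 12.5% and 18.8% of the list, beside the 2.01%, 2.95%, 9.22% and 9.68% of all probe sets that fell. Over all genes with 1 probe set each, as in the list, 2.86%, 4.33%, 13% and 13% fell. The 12.5% with 30 µM at 72 h was thus near that share. The array means overlapped between EMD and DMSO at 24 h and did not at 72 h, and their part in the change of Ucp2 was not tested. In such bulk RNA, fewer cells of a type and less RNA per cell cannot be told apart.

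Ucp3, the form typical of skeletal muscle, rose at 72 h alone. It read 5.52, 5.58 and 5.51 with 30 µM EMD and 5.35, 5.43 and 5.30 with 100 µM EMD, against 5.36, 5.58 and 5.29 with DMSO at 24 h. After 72 h the values were 6.70, 7.15 and 6.92 with 30 µM EMD and 6.08, 5.86 and 6.16 with 100 µM EMD, against 5.08, 5.10 and 4.93 with DMSO. The groups overlapped in part at 24 h, and at 72 h the order of the groups was 30 µM, then 100 µM, then DMSO with no overlap. Ucp3 changed by 0.13 ± 0.11 and -0.05 ± 0.11 with 30 and 100 µM at 24 h (adjusted p = 0.64 and 0.9), and rose by 1.89 ± 0.11 and 1.0 ± 0.11 at 72 h (adjusted p = 3.9e-09 and 8.2e-06), 3.7-fold and 2-fold. Its other probe set gave 0.04 and 0.12 at 24 h, and then 1.55 and 1.0 at 72 h. In DMSO cultures Ucp3 lay near or under the array medians, a range in which RMA compresses changes.

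Slc25a30 (kidney mitochondrial carrier protein KMCP1), a close relative of the uncoupling proteins, read 8.53, 8.41 and 8.80 with 30 µM EMD and 8.55, 8.42 and 8.64 with 100 µM EMD, against 7.77, 7.52 and 7.77 with DMSO at 24 h. The 72 h arrays gave 9.13, 9.14 and 9.45 with 30 µM EMD and 9.0, 8.92 and 9.06 with 100 µM EMD, against 8.27, 8.06 and 7.69 with DMSO. The EMD arrays were above the DMSO arrays of their time without overlap. It rose by 0.89 ± 0.14 and 0.85 ± 0.14 with 30 and 100 µM at 24 h (adjusted p = 0.00063 and 0.00093) and by 1.23 ± 0.14 and 0.98 ± 0.14 at 72 h (adjusted p = 8.2e-06 and 9.8e-05), and its dimmer probe set gave 0.90, 0.82, 1.45 and 1.15. Of the others in this group, Slc25a14 (UCP5) passed at 30 µM and 72 h alone, with a fall of 0.33 ± 0.11 (adjusted p = 0.049). That call was lost without 30 µM EMD 72 h replicate 1 or 3 or DMSO 72 h replicate 1 or 3 (adjusted p 0.053 to 0.23) and under 6 of the 8 other settings tried, among them the replicate block (adjusted p = 0.052). Slc25a27 (UCP4) and Ucp1 had changes between -0.16 and 0.25, and the mean of Ucp1 over all arrays, 3.88, was under the array medians.

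**Figure D2:**
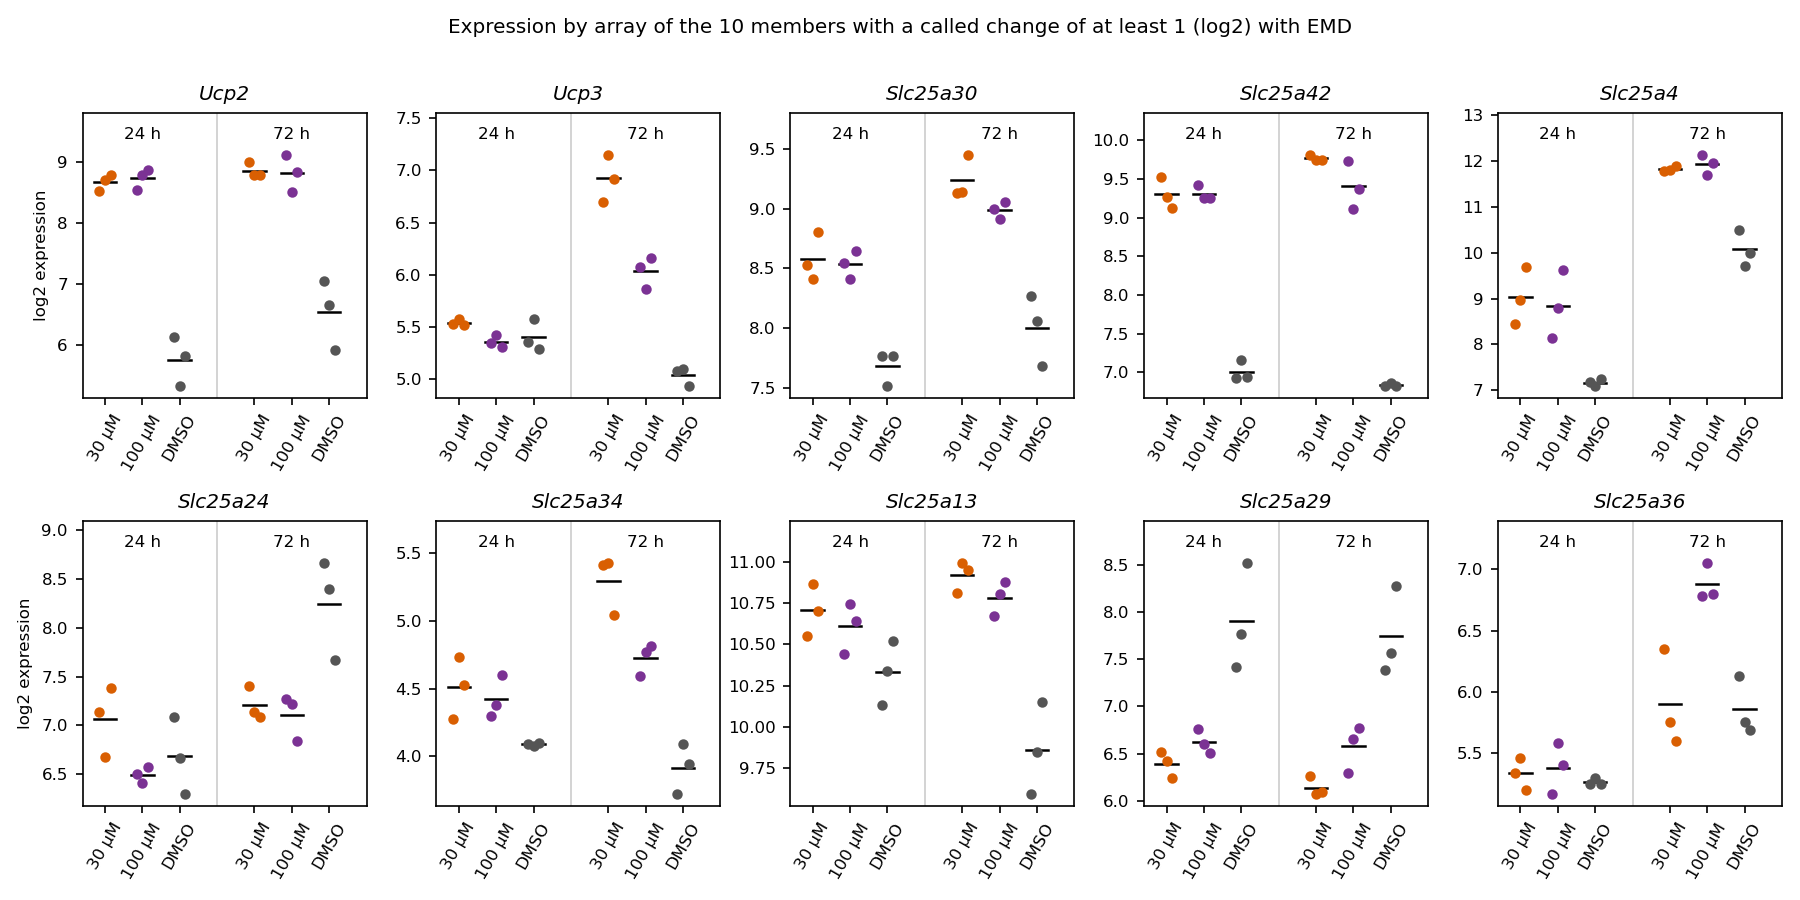
Log2 expression (y axis, a separate range per panel that does not start at 0) in each array, for the 10 members with a called change of at least 1 with EMD. Points are arrays in the groups 30 µM EMD, 100 µM EMD and DMSO at 24 h and at 72 h (x axis, 3 arrays each), lines are group means, and for Ucp2 and Slc25a42 every EMD array lies above every DMSO array.

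The carriers of adenine nucleotides, phosphate and coenzyme A included Slc25a42 and Slc25a4, which rose by more than 1 in all 4 comparisons. Of 11 members, 3 rose in each of the 4 comparisons (27.3%, all probe sets 3.35%, 3.06%, 7.88% and 7.42%). At 72 h 1 fell at either dose (9.09%, all probe sets 9.22% and 9.68%), near the share of all probe sets. Slc25a42, which takes coenzyme A into the matrix in exchange for adenine nucleotides, read 9.53, 9.27 and 9.12 with 30 µM EMD and 9.42, 9.25 and 9.25 with 100 µM EMD, against 6.92, 7.16 and 6.93 with DMSO at 24 h. At 72 h it read 9.81, 9.75 and 9.75 with 30 µM EMD and 9.73, 9.11 and 9.37 with 100 µM EMD, against 6.82, 6.87 and 6.82 with DMSO. Every EMD array was at least 9.11, and the highest DMSO array was 7.16. At 24 h the rise was 2.30 ± 0.13 with 30 µM and 2.30 ± 0.13 with 100 µM (adjusted p = 2.6e-09 and 2.8e-09), 4.93-fold and 4.93-fold, and 2.93 ± 0.13 and 2.57 ± 0.13 at 72 h (adjusted p = 1.3e-10 and 9.9e-10), 7.64-fold and 5.94-fold.

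Slc25a4, the ADP/ATP carrier ANT1 best known from heart and muscle, read 8.45, 8.96 and 9.69 with 30 µM EMD and 8.13, 8.80 and 9.61 with 100 µM EMD, against 7.18, 7.09 and 7.24 with DMSO at 24 h. After 72 h the values were 11.77, 11.81 and 11.89 with 30 µM EMD and 12.13, 11.69 and 11.97 with 100 µM EMD, against 10.50, 9.71 and 10.00 with DMSO. EMD arrays were higher than DMSO arrays at either time, and EMD arrays at 24 h were lower than DMSO arrays at 72 h, and the gene also rose with culture time in DMSO. The rises were 1.87 ± 0.31 and 1.68 ± 0.31 at 24 h (adjusted p = 0.0011 and 0.0026) and 1.75 ± 0.31 and 1.86 ± 0.31 at 72 h (adjusted p = 0.00071 and 0.00046). Slc25a5, the ADP/ATP carrier ANT2, was not called in any of the 9 comparisons made, with changes between -0.09 and 0.14 with EMD, nor was the phosphate carrier Slc25a3 (-0.21 to -0.06).

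The calcium-dependent ATP-Mg/phosphate carriers, which adjust the adenine nucleotide pool of the matrix, did not move together. Slc25a24 read 7.14, 6.68 and 7.38 with 30 µM EMD and 6.51, 6.41 and 6.57 with 100 µM EMD, against 7.09, 6.66 and 6.30 with DMSO at 24 h. The 72 h arrays gave 7.40, 7.14 and 7.09 with 30 µM EMD and 7.27, 7.22 and 6.85 with 100 µM EMD, against 8.66, 8.39 and 7.67 with DMSO. The groups overlapped at 24 h, and at 72 h all 6 EMD arrays were below the 3 DMSO arrays. Slc25a24 changed by 0.38 ± 0.23 and -0.19 ± 0.23 at 24 h (adjusted p = 0.47 and 0.79) and fell by 1.03 ± 0.23 and 1.13 ± 0.23 at 72 h (adjusted p = 0.005 and 0.0026). The gene is also expressed in stellate cells and fibroblasts. Over their 10 markers the mean of an array at 72 h ran from 4.34 to 4.50 with 30 µM and 4.37 to 4.48 with 100 µM EMD, against 4.51 to 4.68 with DMSO. Of the 10, 3 and 2 were called lower and 0 higher (4 and 2 at an unadjusted p under 0.05 in either direction). These falls were 30% and 20% of the list, beside 9.22% and 9.68% of all probe sets. The median change of the list was 0.0005 and -0.001, and the lowest, that of Reln, was -1.10 and -1.26. The part of these markers in the change of Slc25a24 was not tested.

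Slc25a25 rose at 24 h, by 0.70 ± 0.16 with 30 µM and 0.64 ± 0.16 with 100 µM (adjusted p = 0.015 and 0.026), and did not pass at 72 h (0.45 ± 0.16 and 0.30 ± 0.16). The call with 30 µM was lost without 30 µM EMD 24 h replicate 2 or 3 or DMSO 24 h replicate 1 or 3 (adjusted p 0.051 to 0.077), and that with 100 µM without 100 µM EMD 24 h replicate 1, 2 or 3 or DMSO 24 h replicate 1 or 3 (adjusted p 0.051 to 0.12). At 72 h the call with 30 µM was gained without 30 µM EMD 72 h replicate 3 or DMSO 72 h replicate 2 (adjusted p 0.034 to 0.049) and with the replicate block (adjusted p = 0.037). Slc25a23 had the largest SE of all members. Its change with 100 µM at 72 h was -1.28 ± 0.46 (adjusted p = 0.065, other probe sets -0.62 and -0.16), and it passed without 100 µM EMD 72 h replicate 1 (adjusted p = 0.0025) with a change of -1.89, as well as with the replicate block (adjusted p = 0.016). Slc25a16, a carrier linked to coenzyme A uptake, changed by -0.02 ± 0.13 and 0.05 ± 0.13 at 24 h without passing, and rose by 0.83 ± 0.13 and 0.72 ± 0.13 at 72 h (adjusted p = 0.00016 and 0.00064). Slc25a17, which carries coenzyme A in peroxisomes, was not called (-0.17 ± 0.08, -0.22 ± 0.08, -0.17 ± 0.08 and -0.23 ± 0.08).

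Of the 6 carriers of di- and tricarboxylates and oxo acids, only Slc25a34 passed in a comparison of EMD with DMSO. Slc25a34, an orphan carrier of this branch of the family, read 4.27, 4.73 and 4.53 with 30 µM EMD and 4.30, 4.38 and 4.60 with 100 µM EMD, against 4.09, 4.07 and 4.10 with DMSO at 24 h. At 72 h it read 5.41, 5.43 and 5.05 with 30 µM EMD and 4.59, 4.77 and 4.81 with 100 µM EMD, against 3.72, 4.09 and 3.94 with DMSO. EMD arrays were above DMSO arrays at both times, and at 72 h every array with 30 µM was above those with 100 µM. Its changes were 0.43 ± 0.13 and 0.34 ± 0.13 at 24 h (adjusted p = 0.078 and 0.18), and it rose by 1.38 ± 0.13 and 0.81 ± 0.13 at 72 h (adjusted p = 1.3e-06 and 0.00035). The change with 30 µM at 24 h passed without 30 µM EMD 24 h replicate 1 (adjusted p = 0.03) and with the replicate block (adjusted p = 0.041). All its values other than those with 30 µM EMD at 72 h were under the array medians, a range in which RMA compresses changes. Slc25a1, the citrate carrier that feeds lipid synthesis, changed by 0.24 ± 0.09, 0.22 ± 0.09, 0.21 ± 0.09 and 0.03 ± 0.09 with none passing, and the dicarboxylate carrier Slc25a10, the 2-oxoglutarate carrier Slc25a11, the oxodicarboxylate carrier Slc25a21 and Slc25a35 lay between -0.44 and 0.18. Slc25a21 passed as lower without DMSO 72 h replicate 1 (adjusted p = 0.039) with 30 µM, and without 100 µM EMD 72 h replicate 1 or DMSO 72 h replicate 1 (adjusted p 0.038 to 0.0497) with 100 µM.

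The 10 carriers of amino acids and choline held the largest falls among called members. Slc25a29, which moves the basic amino acids arginine and lysine, read 6.51, 6.42 and 6.24 with 30 µM EMD and 6.77, 6.60 and 6.51 with 100 µM EMD, against 7.42, 7.77 and 8.52 with DMSO at 24 h. After 72 h the values were 6.26, 6.07 and 6.09 with 30 µM EMD and 6.30, 6.66 and 6.78 with 100 µM EMD, against 7.39, 7.57 and 8.28 with DMSO. All 12 EMD arrays were below all 6 DMSO arrays. At 24 h it fell by 1.51 ± 0.24 with 30 µM and 1.28 ± 0.24 with 100 µM (adjusted p = 0.00061 and 0.0025) and by 1.61 ± 0.24 and 1.17 ± 0.24 at 72 h (adjusted p = 0.00012 and 0.0022). Beside the falls at 72 h, 6 and 5 of 13 hepatocyte markers were also lower with 30 and 100 µM (46.2% and 38.5%, all probe sets 9.22% and 9.68%). Of the same markers 2 and 1 were higher (15.4% and 7.69%, all probe sets 7.88% and 7.42%). Their part in the results was not tested.

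The aspartate/glutamate carriers, parts of the malate-aspartate shuttle, differed from each other. Slc25a13 (citrin), the form of the liver, read 10.55, 10.87 and 10.70 with 30 µM EMD and 10.44, 10.75 and 10.64 with 100 µM EMD, against 10.13, 10.34 and 10.52 with DMSO at 24 h. The 72 h arrays gave 10.81, 10.99 and 10.95 with 30 µM EMD and 10.67, 10.80 and 10.88 with 100 µM EMD, against 9.59, 9.84 and 10.15 with DMSO. DMSO arrays were lower than EMD arrays at 72 h without overlap. Slc25a13 changed by 0.38 ± 0.14 and 0.28 ± 0.14 at 24 h (adjusted p = 0.14 and 0.31) and rose by 1.06 ± 0.14 and 0.92 ± 0.14 at 72 h (adjusted p = 3e-05 and 0.00014), with its other probe set at 0.55, 0.52, 1.13 and 0.90. That probe set passed with 30 µM at 24 h (adjusted p = 0.042), and the brighter one did so with the replicate block (adjusted p = 0.02). Slc25a12 (aralar), best known from brain and muscle, fell at 24 h, by 0.91 ± 0.15 with 30 µM and 0.77 ± 0.15 with 100 µM (adjusted p = 0.00082 and 0.0033), and changed by -0.13 ± 0.15 and 0.31 ± 0.15 at 72 h without passing.

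Smaller changes in the same role group passed at 72 h alone. The glutamate carrier Slc25a22 rose with 30 µM by 0.34 ± 0.09 (adjusted p = 0.012), a call lost without DMSO 72 h replicate 1 (adjusted p = 0.051). Slc25a44, which carries branched-chain amino acids, rose with 100 µM by 0.41 ± 0.11 (adjusted p = 0.018, other probe set 0.17), a call lost without 100 µM EMD 72 h replicate 2 or 3 or DMSO 72 h replicate 2 (adjusted p 0.055 to 0.099), and its change with 30 µM, 0.33 ± 0.11, passed without DMSO 72 h replicate 1 (adjusted p = 0.046) and with the replicate block (adjusted p = 0.037). The choline carrier Slc25a48 fell with 100 µM by 0.40 ± 0.13 (adjusted p = 0.043), a call lost without 100 µM EMD 72 h replicate 2 or 3 or DMSO 72 h replicate 2 or 3 (adjusted p 0.053 to 0.21). Its dimmer probe set changed by -0.86 and -0.85 at 24 h, and then -0.63 and -0.52 at 72 h, and passed as lower in the first 3 of these. The change of Slc25a48 with 30 µM at 72 h, -0.36 ± 0.13, passed without DMSO 72 h replicate 1 (adjusted p = 0.037). Slc25a15, the ornithine carrier of the urea cycle, had changes of -0.06 ± 0.14, 0.07 ± 0.14, -0.40 ± 0.14 and 0.03 ± 0.14 in the 4 comparisons with DMSO, none of them called, and passed with 30 µM at 72 h without DMSO 72 h replicate 1 (adjusted p = 0.028). Its other 5 probe sets gave -0.46, -0.52, -0.45, -0.53 and -0.12 there. The glycine carrier Slc25a38 changed by -0.36 ± 0.10 with 30 µM at 24 h (adjusted p = 0.057) and passed without DMSO 24 h replicate 2 (adjusted p = 0.05) and with the replicate block (adjusted p = 0.047).

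Of the 6 carriers of cofactors, nucleotides and metals, Slc25a36, a carrier of pyrimidine nucleotides, rose with the higher dose at 72 h. It read 5.34, 5.46 and 5.20 with 30 µM EMD and 5.17, 5.58 and 5.40 with 100 µM EMD, against 5.25, 5.30 and 5.25 with DMSO at 24 h. At 72 h it read 6.35, 5.76 and 5.60 with 30 µM EMD and 6.78, 7.05 and 6.80 with 100 µM EMD, against 6.13, 5.76 and 5.69 with DMSO. At 72 h the 3 arrays with 100 µM were above all others, while the 30 µM and DMSO arrays overlapped, 30 µM EMD 72 h replicate 1 being the highest of them. The changes were 0.07 ± 0.17 and 0.12 ± 0.17 at 24 h, 0.04 ± 0.17 with 30 µM at 72 h and a rise of 1.02 ± 0.17 with 100 µM at 72 h (adjusted p = 0.00034), 2.03-fold. Its dimmer probe set gave 0.77 in the last comparison. Slc25a32, the carrier of folate and FAD, rose with 30 µM at 72 h by 0.88 ± 0.27 (adjusted p = 0.035, other probe set 0.47), a call lost without 30 µM EMD 72 h replicate 2 or 3 or DMSO 72 h replicate 1 or 2 (adjusted p 0.061 to 0.18). That call was also lost with the mean of its probe sets (adjusted p = 0.11).

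Slc25a39, which brings glutathione into the matrix, fell with 30 µM by 0.33 ± 0.08 at 24 h and 0.36 ± 0.08 at 72 h (adjusted p = 0.026 and 0.0054, other probe set -0.08 and -0.16) and changed by -0.15 ± 0.08 and -0.10 ± 0.08 with 100 µM. The call at 24 h was lost without 30 µM EMD 24 h replicate 2 or 3 or DMSO 24 h replicate 1 or 2 (adjusted p 0.074 to 0.12). It was also lost with cyclic loess normalisation (adjusted p = 0.052), with the mean of its probe sets (adjusted p = 0.12) and with only the arrays compared (adjusted p = 0.13). Of the iron carriers, mitoferrin 2 (Slc25a28) fell with 100 µM at 72 h by 0.43 ± 0.13 (adjusted p = 0.034), a call lost without 100 µM EMD 72 h replicate 1, 2 or 3 or DMSO 72 h replicate 1 or 2 (adjusted p 0.054 to 0.15), and mitoferrin 1 (Slc25a37) changed by -0.17 to 0.18 and was not called. The other pyrimidine nucleotide carrier, Slc25a33, changed by 0.47 ± 0.23 with 100 µM at 72 h and passed without 100 µM EMD 72 h replicate 1 (adjusted p = 0.026) and with the replicate block (adjusted p = 0.034). In the last role group (Slc25a46, Slc25a51l1 and Slc25a53) 0 of 3 passed in the 4 comparisons, with 0, 0, 1 and 1 at an unadjusted p under 0.05. Slc25a51l1 had the largest change of them, 0.36 ± 0.12 with 100 µM at 72 h (adjusted p = 0.059), and passed without 100 µM EMD 72 h replicate 1 (adjusted p = 0.0026) and with the replicate block (adjusted p = 0.048). Slc25a46 changed by 0.26 ± 0.12 with 30 µM at 72 h and passed with the replicate block (adjusted p = 0.049). The 22 members that passed in none of the 4 comparisons, Slc25a31, Slc25a41 and Slc25a45 among them, had changes between -1.28 and 0.47.

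The doses were compared with each other to see whether the response grew with concentration. At 24 h limma called 0 of the 42 members, with 3 at an unadjusted p under 0.05 and 0 with the replicate block or array weights, and 0% of all probe sets. For the genes with the largest responses the differences of 100 µM minus 30 µM at 24 h were 0.06 ± 0.24 for Ucp2 (95% interval -0.44 to 0.56), 0.00 ± 0.13 for Slc25a42 (-0.28 to 0.28) and -0.19 ± 0.31 for Slc25a4 (-0.85 to 0.47). At 72 h, 1 member was higher and 2 were lower with 100 µM than with 30 µM, beside 1.25% and 1.85% of all probe sets. Slc25a36 was higher by 0.98 ± 0.17 (adjusted p = 0.0058, other probe set 0.90). With only the arrays compared its call was lost, as 0 members were then higher and 1, Ucp3, was lower. Ucp3 was lower by 0.89 ± 0.11 (adjusted p = 0.00095, other probe set -0.55), and Slc25a34 by 0.57 ± 0.13 (adjusted p = 0.027), a call lost without 30 µM EMD 72 h replicate 1 or 2 or 100 µM EMD 72 h replicate 2 or 3 (adjusted p 0.081 to 0.12). For Ucp2 the difference was -0.03 ± 0.24 (-0.54 to 0.47), for Slc25a4 0.10 ± 0.31 (-0.56 to 0.76) and for Slc25a42 -0.36 ± 0.13 (-0.64 to -0.09, adjusted p = 0.16). Slc25a42 passed without 100 µM EMD 72 h replicate 1 (adjusted p = 0.01), and without that array 7 members were called in place of 3, Slc25a12, Slc25a15 and Slc25a23 being the others gained. The difference of Slc25a12, 0.44 ± 0.15, also passed with the replicate block (adjusted p = 0.044).

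Whether the response to EMD differed between the times was tested with an interaction term, the change at 72 h minus the change at 24 h. With 30 µM 3 members had a higher response at 72 h and 0 a lower one (12 at an unadjusted p under 0.05 in either direction), beside 0.412% and 0.528% of all probe sets. With array medians made equal the split was 3 and 1. Ucp3 changed by 1.89 at 72 h, against 0.13 at 24 h, a difference of 1.76 ± 0.16 (adjusted p = 4.4e-05, other probe set 1.50). Slc25a34 changed by 1.38 at 72 h, against 0.43 at 24 h, a difference of 0.96 ± 0.19 (adjusted p = 0.022) whose call was lost without 30 µM EMD 24 h replicate 1 or 3, DMSO 24 h replicate 3 or 30 µM EMD 72 h replicate 2 (adjusted p 0.054 to 0.071). Slc25a16 changed by 0.83 at 72 h, against -0.02 at 24 h, a difference of 0.85 ± 0.18 (adjusted p = 0.03), lost without 30 µM EMD 24 h replicate 1 or 2, DMSO 24 h replicate 2 or 3, 30 µM EMD 72 h replicate 2 or 3 or DMSO 72 h replicate 1 or 2 (adjusted p 0.055 to 0.086). Without 30 µM EMD 24 h replicate 1, DMSO 24 h replicate 3 or 30 µM EMD 72 h replicate 2 the count was 1, without DMSO 72 h replicate 3 it was 5, and Ucp3 was called in every fit without 1 array. With the replicate block the split was 5 and 1, with Slc25a12 (adjusted p = 0.022) and Slc25a13 (adjusted p = 0.012) higher at 72 h and Slc25a24 (adjusted p = 0.013) lower.

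With 100 µM 2 members had a higher response at 72 h and 0 a lower one (13 at an unadjusted p under 0.05), beside 0.245% and 0.448% of all probe sets. Ucp3 changed by 1.0 at 72 h, against -0.05 at 24 h, a difference of 1.05 ± 0.16 (adjusted p = 0.0048, other probe set 0.88). Slc25a12 changed by 0.31 at 72 h, against -0.77 at 24 h, a difference of 1.09 ± 0.21 (adjusted p = 0.023), and this call was lost without 100 µM EMD 24 h replicate 1 or 3, DMSO 24 h replicate 2 or 3, 100 µM EMD 72 h replicate 2 or 3 or DMSO 72 h replicate 2 (adjusted p 0.051 to 0.074), which left 1 member called. For Ucp2 the response at 72 h minus that at 24 h was -0.61 ± 0.34 with 30 µM (-1.32 to 0.10, adjusted p = 0.48) and -0.70 ± 0.34 with 100 µM (-1.41 to 0.01, adjusted p = 0.44). For Slc25a24 it was -1.41 ± 0.33 with 30 µM (adjusted p = 0.055), which passed without 30 µM EMD 24 h replicate 2, DMSO 24 h replicate 1 or DMSO 72 h replicate 3 (adjusted p 0.0088 to 0.036), and -0.94 ± 0.33 with 100 µM (adjusted p = 0.25). With the replicate block 5 members had a higher response to 100 µM at 72 h, Slc25a13 (adjusted p = 0.022), Slc25a16 (adjusted p = 0.04) and Slc25a36 (adjusted p = 0.049) being added.

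**Figure D3:**
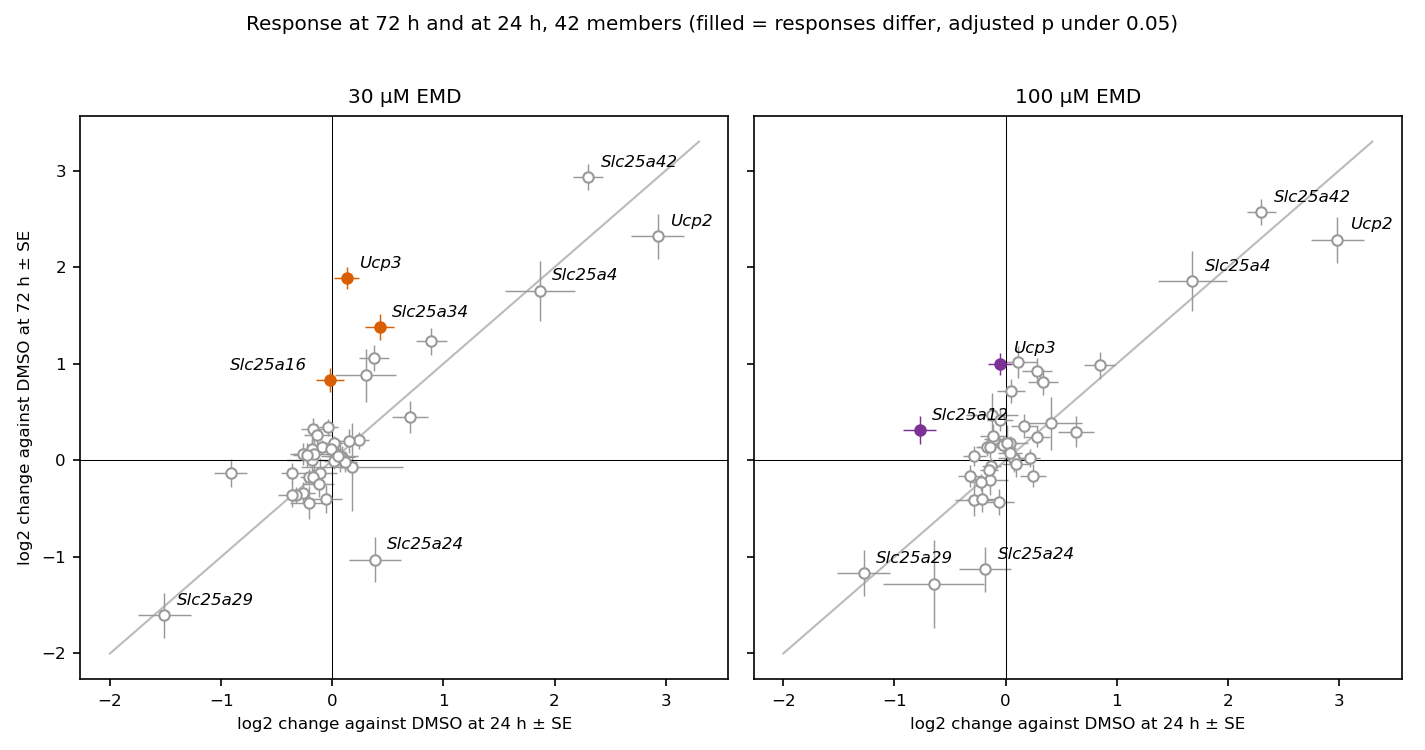
Log2 change against DMSO at 24 h (x axis) and at 72 h (y axis), each ± SE, for the 42 members with 30 µM EMD (left) and 100 µM EMD (right). The diagonal marks equal changes, and filled points, whose responses differed between the times, lie above it, with Ucp3 at 1.89 at 72 h against 0.13 at 24 h with 30 µM.

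Over time in vehicle cultures, Slc25a4 and Slc25a24 had the largest rises among the members, and Slc25a12 the largest fall. In DMSO at 72 h against DMSO at 24 h, 5 members rose and 7 fell, 11.9% and 16.7%, beside 11% and 10.7% of all probe sets, so the share that rose was near that of all probe sets. Slc25a4 had 10.50, 9.71 and 10.00 at 72 h against 7.18, 7.09 and 7.24 at 24 h, and rose by 2.90 ± 0.31 (adjusted p = 1.1e-05), 7.49-fold. Slc25a24 had 8.66, 8.39 and 7.67 at 72 h against 7.09, 6.66 and 6.30 at 24 h and rose by 1.56 ± 0.23 (adjusted p = 0.00022). EMD and culture time thus moved Slc25a4 the same way. Slc25a24 rose with time in DMSO and was lower with EMD than with DMSO at 72 h, while it was not called with EMD at 24 h. Its mean at 24 h and 72 h was 7.07 and 7.21 with 30 µM EMD, and 6.50 and 7.11 with 100 µM EMD. The other rises were those of Ucp2 (0.79 ± 0.24, adjusted p = 0.025), Slc25a25 (0.63 ± 0.16) and Slc25a36 (0.59 ± 0.17, other probe set 0.63). The call of Ucp2 was lost without DMSO 24 h replicate 2 or 3 or DMSO 72 h replicate 1 or 2 (adjusted p 0.052 to 0.12), that of Slc25a25 without DMSO 24 h replicate 3 or DMSO 72 h replicate 2 (adjusted p 0.052 to 0.06), and that of Slc25a36 without DMSO 72 h replicate 1 (adjusted p = 0.084).

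Amino acid carriers made up 5 of the 7 falls in vehicle cultures. These were 5 of the 10 carriers of amino acids and choline (50%, all probe sets 10.7%). Slc25a12 fell by 0.77 ± 0.15 (adjusted p = 0.0016), Slc25a44 by 0.64 ± 0.11 (adjusted p = 0.00094, other probe set -0.26), Slc25a13 by 0.47 ± 0.14 (adjusted p = 0.021, other probe set 0.04), and the glutamate carriers Slc25a18 and Slc25a22 by 0.36 ± 0.09 and 0.34 ± 0.09 (adjusted p = 0.012 and 0.011). The citrate carrier Slc25a1 fell by 0.49 ± 0.09 (adjusted p = 0.0011) and Ucp3 by 0.37 ± 0.11 (adjusted p = 0.025, other probe set -0.35). The call of Slc25a13 was lost without DMSO 24 h replicate 2 or 3 or DMSO 72 h replicate 1 or 2 (adjusted p 0.052 to 0.1), and that of Ucp3 without DMSO 24 h replicate 2 or DMSO 72 h replicate 3 (adjusted p 0.091 to 0.11). Slc25a18 lost its call without DMSO 24 h replicate 1 (adjusted p = 0.0502) and Slc25a22 without DMSO 24 h replicate 3 (adjusted p = 0.058). All values of Slc25a18 (mean over all arrays 4.15) were under the array medians, close to the background. Slc25a37 changed by -0.50 ± 0.19 (adjusted p = 0.065) and passed with the replicate block (adjusted p = 0.011), and the dimmer probe set of Slc25a39 passed as higher (0.37), where the brighter one changed by -0.05 ± 0.08. In the same comparison 0 of 16 macrophage markers rose and 6 fell (37.5%, all probe sets 10.7%, with 9 markers at an unadjusted p under 0.05), and the beta-actin difference given above was lower at 72 h. Their part in these changes was not tested.

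**Figure D4:**
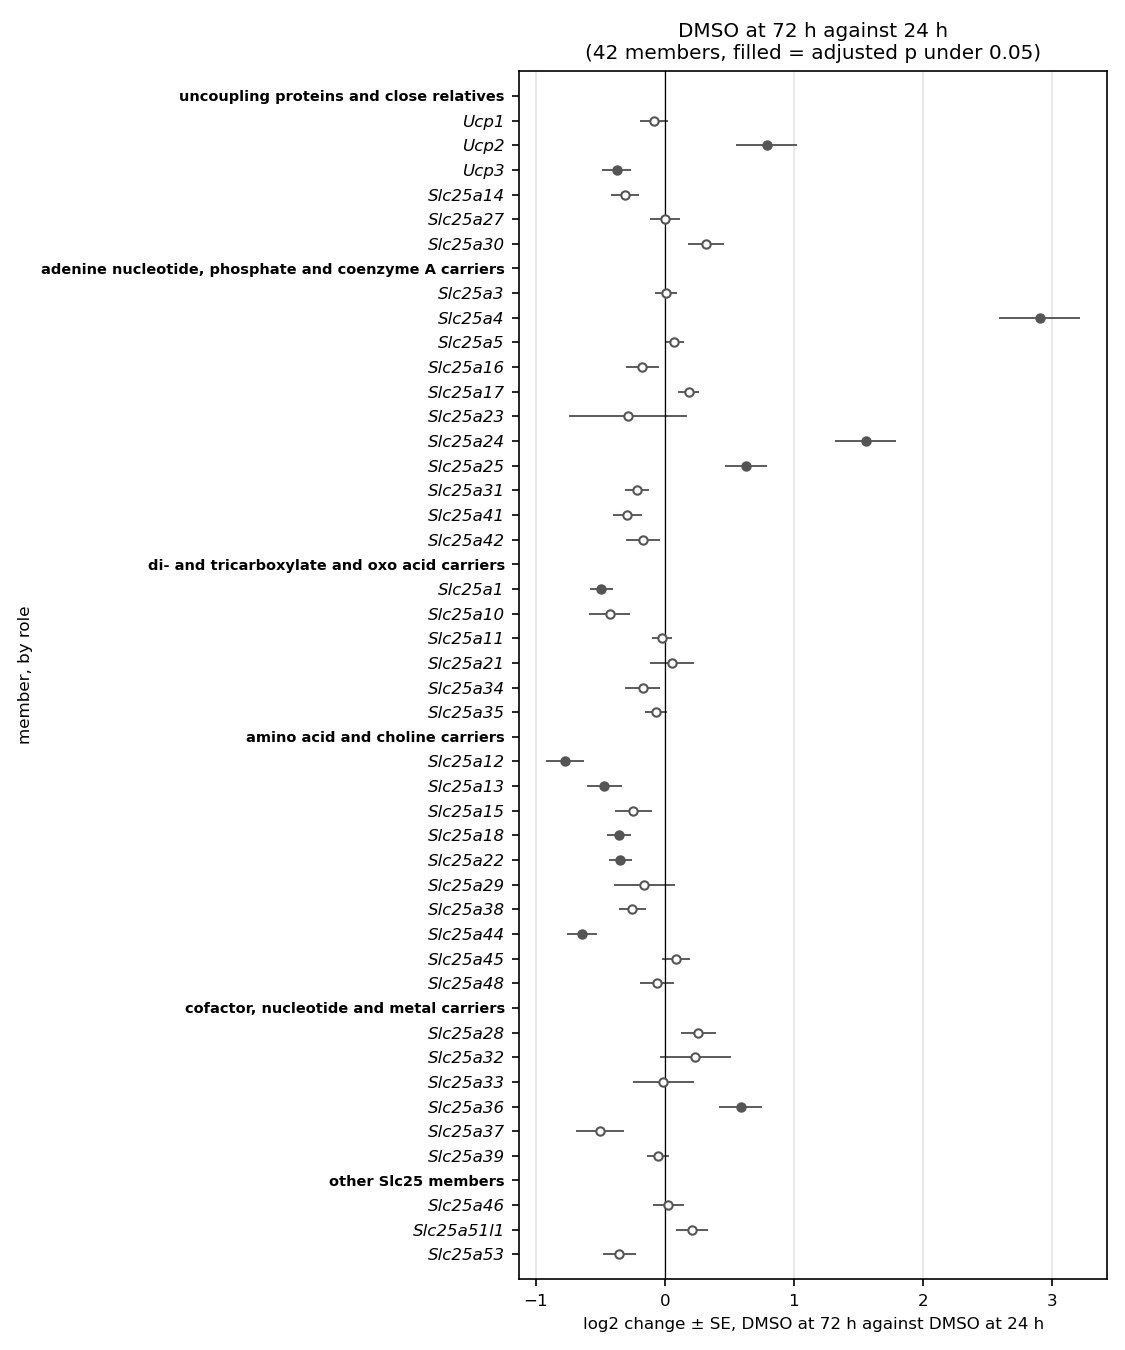
Log2 change ± SE (x axis) of the 42 members, grouped by role (y axis), in DMSO cultures at 72 h against 24 h, with 3 arrays per group. Filled points passed an adjusted p of 0.05, with Slc25a4 at 2.90 the highest and Slc25a12 at -0.77 the lowest.

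Transport proteins of mitochondria outside the members were read as a list of 24, of which 21 were measured. With EMD 3, 3, 4 and 4 rose and 2, 2, 6 and 4 fell in the 4 comparisons, and the median changes were -0.06, -0.06, -0.06 and -0.05. The rises were 14.3%, 14.3%, 19% and 19% of the list, beside 3.35%, 3.06%, 7.88% and 7.42% of all probe sets. The falls were 9.52%, 9.52%, 28.6% and 19%, beside 2.01%, 2.95%, 9.22% and 9.68%. Slc25a20, the carnitine/acylcarnitine carrier of fatty acid oxidation, rose by 2.26 ± 0.13 and 2.30 ± 0.13 at 24 h, and by 2.30 ± 0.13 and 2.08 ± 0.13 at 72 h. The subunits of the pyruvate carrier, which work as a pair, moved in opposite directions. Mpc2 rose by 1.45 ± 0.09, 1.39 ± 0.09, 1.69 ± 0.09 and 1.52 ± 0.09, while Mpc1 fell by 0.38 ± 0.09, 0.47 ± 0.09, 0.45 ± 0.09 and 0.47 ± 0.09 (adjusted p = 0.013, 0.002, 0.0011 and 0.00086). Mtch2, an insertase of the outer membrane, rose in all 4 (0.26 ± 0.07, 0.31 ± 0.07, 0.52 ± 0.07 and 0.34 ± 0.07). The serine transporter Sfxn1 fell in all 4 (-0.72 ± 0.17, -0.59 ± 0.17, -1.17 ± 0.17 and -0.73 ± 0.17), and its relative Sfxn3 fell at 72 h (-1.35 ± 0.33 and -1.04 ± 0.33). The pores of the outer membrane, Vdac1 and Vdac2, were not called with EMD, and Vdac3 fell with 30 µM at 72 h (-0.36 ± 0.11).

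Genes that mark the amount of mitochondria, such as subunits of the respiratory chain and import proteins, were measured for 18 of 20. With EMD 3 and 2 of the 18 rose at 24 h and 10 and 7 at 72 h. In percent of the list this was 16.7%, 11.1%, 55.6% and 38.9%, beside 3.35%, 3.06%, 7.88% and 7.42% of all probe sets. Among the 18 genes limma called 0 lower, with 5, 7, 14 and 9 at an unadjusted p under 0.05 in either direction. Their median changes were 0.08 and 0.07 at 24 h, followed by 0.36 and 0.19 at 72 h, and the largest was 1.03, with 30 µM at 72 h. The mean of this list over an array ran from 11.00 to 11.14 with 30 µM and 10.99 to 11.01 with 100 µM EMD, against 10.69 to 10.78 with DMSO, at 72 h. With 30 µM at 72 h, Ucp2, Ucp3, Slc25a4, Slc25a13, Slc25a30, Slc25a34 and Slc25a42 had larger changes than each of these 18 genes, a difference that was not tested. Those members had been picked for a called change of at least 1, which largely fixed this order. Over the whole lists the order was the reverse. The 42 members had a median change of 0.06 with 23.8% risen, against 0.36 and 55.6% for the 18 genes.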

How the data were processed

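RNA from 18 cultures of rat hepatocytes was measured on 1 array each. The deposited values are log2 expression per probe set, which the authors made with RMA (background correction, quantile normalisation between arrays, summary per probe set) in Affymetrix Expression Console. The software version was not given in the sources used here. RMA gives no detection call, and the number of arrays limits the precision.

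All 31042 probe sets other than controls were fitted in limma 3.58.1 (R 4.3.3) with 1 mean for each of the 6 groups. The 9 comparisons were taken from this fit with two-sided moderated tests, Benjamini-Hochberg adjustment over all probe sets and a threshold of 0.05. The script was tested on simulated data. Gene names came from the platform annotation, in which 20826 probe sets had 1 symbol, 436 had several and 9780 had none. Values per array were given for members called with a log2 change of at least 1 with EMD against DMSO. Other called members were given by change and SE, and members not called by their range and count, except that in a role group without a member of the first kind the largest change was named. Single members outside this rule, such as neighbours in role or members whose call turned on 1 array, were added after their values were seen. The members and gene lists were chosen with earlier results of these data known. The study's methods state that hepatocytes of every animal went through all treatments, while the labels do not say that a replicate number marks an animal. Arrays with the same number deviated together in 16 of 18 pairs (correlation over 0.1, median 0.37, lowest 0.0058), and 17 of 18 arrays correlated best with their own number. The main values are from the fit without the block, and those with it are given where they changed a call. Alternatives were other normalisations, moderation, probe set and array choices, array weights, a replicate block and leaving out each array. Slc25a2, Slc25a6 and 7 other family members had no probe set that met the rule, and Slc25a51 was left out since each of its probe sets lists that symbol more than once, for separate gene records, and so was not taken as having exactly 1 symbol.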

Additional observations from a re-analysis of the deposited data

Results flagged for a closer look

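In 5 cases the response to EMD differed between the times by the interaction test, limma's change at 72 h minus the change at 24 h. Ucp3 differed by 1.76 ± 0.16 with 30 µM (SE, adjusted p = 4.4e-05) and by 1.05 ± 0.16 with 100 µM (adjusted p = 0.0048), and both probe sets of the gene passed at both doses. With 30 µM, Slc25a34 differed by 0.96 ± 0.19 (adjusted p = 0.022) and Slc25a16 by 0.85 ± 0.18 (adjusted p = 0.030). With 100 µM, Slc25a12 differed by 1.09 ± 0.21 (adjusted p = 0.023), and it fell at 24 h without passing at 72 h. The call of Ucp3 held at both doses without each single array, and those of Slc25a34, Slc25a16 and Slc25a12 did not. The interactions of both doses share the DMSO arrays.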

How the results depend on the processing

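Of 63 calls over the 42 members and 9 comparisons, 42 were lost neither under the 8 alternatives nor without a single array. Among these were the calls of Ucp2, Slc25a42, Slc25a4, Slc25a29 and Slc25a30 with EMD. The alternative with only probe sets above the median left out dim members, Slc25a34 among them, so their calls were not tried under it. No called value changed direction. Leaving out single arrays gave 6 to 9 members called with 30 µM and 6 to 7 with 100 µM at 24 h, 13 to 15 and 11 to 17 at 72 h, 0 to 0 between the doses at 24 h, 2 to 7 at 72 h (7 without 100 µM EMD 72 h replicate 1), 8 to 14 in DMSO over time, and 1 to 5 and 1 to 3 for the interactions with 30 and 100 µM. The 3 members that differed between the doses at 72 h became 1 with only the arrays compared, a fit with fewer arrays, and 9 with array weights. For the interactions, 3 members with 30 µM became 7 with array weights and 6 with the replicate block, and 2 with 100 µM became 5 under either setting. The cause was not tested. In the other comparisons the counts stayed within 1.5 times.

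The replicate block changed 18 calls of single members, 17 gained and 1 lost, each given beside its result, and no other call. With it, the counts over all probe sets became 1625 in place of 963 between the doses at 72 h, and 924 in place of 292 and 534 in place of 215 for the interactions with 30 and 100 µM. RMA compresses low values, which limits the 9 members with a mean under the array median.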
